A study of Mus musculus with 2 samples.

Results

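The 10 heat shock genes described here, Hspa1a, Hspa1b, Hspa8, Hsph1, Dnajb1, Hsp90aa1, Hsp90ab1, Hspb1, Hspd1 and Hspe1, encode chaperones of the cytosol and of mitochondria. They were selected on gene symbol among the 22909 genes that could be named on the arrays, with the log2 ratios of these same arrays already known, so every ratio below is a description and no test. RNA of whole colon came from C57BL/6 mice at 8 weeks of age in 2 groups. The controls carried Villin-Cre, a transgene that makes Cre recombinase in the intestinal epithelium, and the EP4 cKO mice carried Villin-Cre; EP4flox/flox, so that Cre is present in both groups and the floxed Ptger4 gene, which encodes the prostaglandin E2 receptor EP4, is removed in epithelial cells and not in the muscle, connective tissue or immune cells of the colon wall. Each genotype had 1 array (Agilent, 1 colour, Cy3), hybridized with RNA combined from 3 pools of colon. The data analysed here held a single array of each genotype, so differences cannot be set against a spread between mice and are given without p-values.

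Heat shock proteins bind unfolded proteins and keep them from clumping. HSP70 proteins work in a cycle that is started by J-domain partners of the DNAJ family and reset by nucleotide exchange factors such as HSP110, and they pass some clients to HSP90. In mitochondria, HSP60 forms a closed chamber with its lid HSP10. Some of these genes are active in nearly all cells at all times, and others are switched on by heat shock factor 1 (HSF1) when proteins unfold. HSF1 binds repeated GAA and TTC units, called heat shock elements, in front of its target genes. In the gut, inducible HSP70 and HSP25 are found in the colonic epithelium, which lives next to bacteria.

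The unit of all levels below is the normalized signal, that is, the processed signal of a probe scaled so that the mean of each array, without the lowest and highest 2% of the probes, was 2500. A log2 ratio is EP4 cKO over Villin-Cre, and a gene is represented by its brightest probe. Of 56593 probes, the share well above background was 45.4% for the Villin-Cre label and 51.6% for the EP4 cKO label, and no spot was saturated. Over 163 probes with 10 spots each, the median SD of the log2 ratio between spots was 0.034. The probes of the heat shock genes had 1 spot each, for which the error given below is that of the scanner software, near 0.20 on the log2 scale for every heat shock probe well above background. These errors cover the reading of 1 hybridization and no spread between mice. In pairs of values, the Villin-Cre array always comes first. The brighter probe of Ptger4 had 6227 and 5661, and the dimmer one 393 and 592. Its level was therefore not clearly lower where the label says it was deleted, and whether these probes lie in the floxed part was not determined, so all directions rest on the labels.

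The heat shock genes did not move as a block. The inducible HSP70 genes fell by factors of 10.7 and 8.55 in RNA labelled EP4 cKO, HSP25 was 3.46-fold lower, and the mitochondrial pair and the other cytosolic chaperones lay within 2-fold. Of the 10 genes, 3 were more than 2-fold lower and 0 more than 2-fold higher. Over all 14679 genes with a value, 7.87% were more than 2-fold lower and 4.86% more than 2-fold higher, and nothing is read from the comparison, since the genes were chosen with these ratios known. All 10 genes were well above background on both arrays, as were 18 of their 19 probes, and the exception was a dim Hsph1 probe that was not well above background on either. The median log2 ratio of the 10 genes was -0.41, beside -0.10 over all genes.

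**Figure D1:**
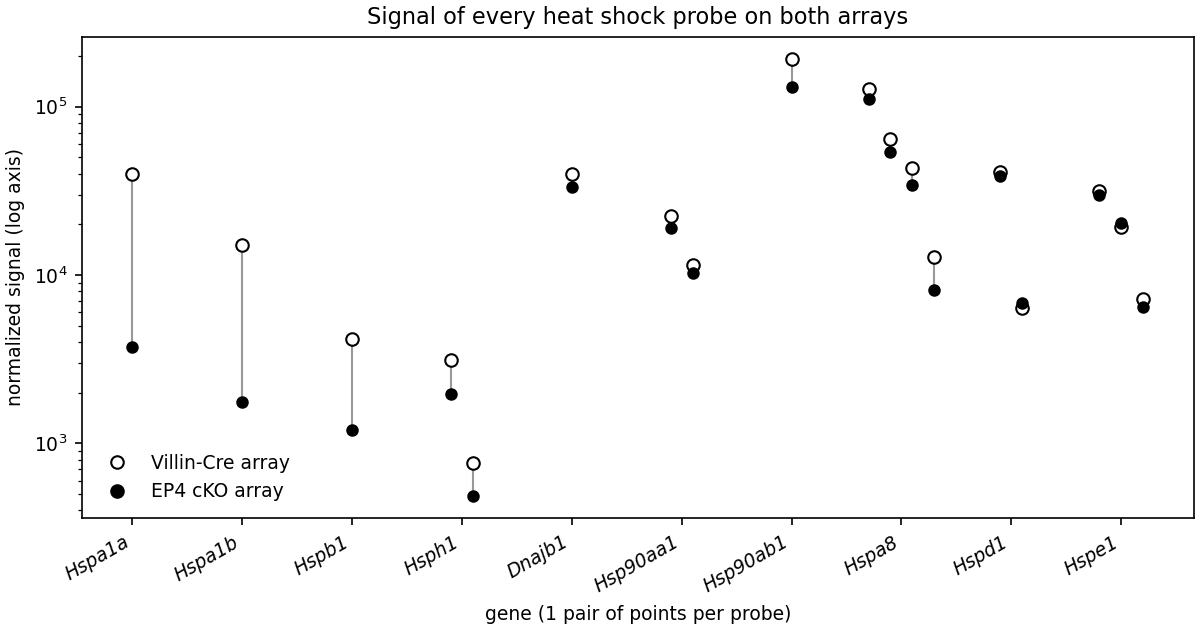
Normalized signal (log axis) of the 18 heat shock probes well above background, with 1 pair of points per probe, open for the Villin-Cre array and filled for the EP4 cKO array. The long drops of Hspa1a (39625 to 3713), Hspa1b (15065 to 1763) and Hspb1 (4162 to 1201) stand beside the nearly touching points of Hspd1 and Hspe1.

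Hspa1a and Hspa1b encode the stress-inducible HSP70 and lie next to each other on chromosome 17. The normalized signal of Hspa1a was 39625 in Villin-Cre and 3713 in EP4 cKO colon. This was a log2 ratio of -3.42 ± 0.20 (scanner error), a 10.7-fold lower level. Hspa1b had 15065 and 1763, a log2 ratio of -3.10 ± 0.20 and an 8.55-fold lower level. Both genes were bright on the control array and far above background on the other. Among 12816 genes well above background on both arrays, Hspa1a had the 20th lowest ratio and Hspa1b the 30th. The coding parts of the gene pair are nearly the same and each had 1 probe, so a probe of either gene may also have bound RNA of the other, and the values cannot be taken as independent. RNA of whole tissue was measured, so that fewer cells of a type and less RNA per cell cannot be told apart, here and for every gene below.

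Hspa1a and Hspa1b have nearly the same sequence in front of their starts as well, and are shown here because they moved by the most. The sequences are from RefSeq, assembly GRCm38.p6. In the 250 bases before the annotated start, 247 bases (98.8%) were the same. Capitals mark the units of a pair GAANNTTC, a minimal heat shock element, searched as GAANNTTC and TTCNNGAA, which each read the same on both strands. It begins 104 bases before the start of both genes.
Hspa1a, chr17:34972157-34972406, minus strand: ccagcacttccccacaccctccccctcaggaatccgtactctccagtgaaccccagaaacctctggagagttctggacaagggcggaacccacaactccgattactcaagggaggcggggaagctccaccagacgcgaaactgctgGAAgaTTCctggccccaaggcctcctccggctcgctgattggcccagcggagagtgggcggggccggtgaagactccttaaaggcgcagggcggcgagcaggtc
Hspa1b, chr17:34959239-34959488, minus strand: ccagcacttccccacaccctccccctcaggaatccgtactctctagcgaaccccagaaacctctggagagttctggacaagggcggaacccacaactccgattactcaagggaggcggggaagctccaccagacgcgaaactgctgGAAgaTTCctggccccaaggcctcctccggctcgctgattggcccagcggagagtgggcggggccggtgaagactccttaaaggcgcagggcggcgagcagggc

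No measured gene around them fell as far. Of the 5 protein-coding genes on either side of the pair by order on the chromosome, 8 had a value. Of these, 0 were more than 2-fold lower, beside 7.87% of all genes with a value. With so low a share, 0 of 8 does not set the neighbours apart from other genes. Neu1, a lysosomal sialidase and the next gene on the side of Hspa1b, went from 39633 to 73134 (log2 ratio 0.88). Hspa1l, the neighbour on the side of Hspa1a and a further gene of this HSP70 group, did not rise well above background. Beyond it, Lsm2, an RNA-processing gene, had 8298 and 7322 (-0.18). The largest change among these neighbours was the rise of C2, a complement component, from 1098 to 11333 (3.37).

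Hspb1 encodes the small heat shock protein HSP25, which holds unfolded proteins in a state from which HSP70 can refold them and which also binds actin. Its only probe had 4162 in Villin-Cre and 1201 in EP4 cKO colon, a log2 ratio of -1.79 ± 0.20. This was the 159th lowest ratio of the 12816 genes, and Hspb1 was the one heat shock gene outside the inducible HSP70 pair past 2-fold.

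The other inducible members moved less. Hsph1 encodes HSP110, a nucleotide exchange factor of HSP70. Its probes had 3143 and 1966 (-0.68 ± 0.20) and 764 and 485 (-0.65 ± 0.21), so that both gave about the same drop of 1.60-fold and 1.57-fold. Dnajb1 encodes HSP40, the J-domain partner that hands clients to HSP70. It had 39761 and 33223 (-0.26 ± 0.20), a drop of 1.20-fold, although it belongs with Hspa1a and Hspa1b among the classical HSF1 targets. Hsp90aa1 encodes the inducible form of HSP90, and its probes had 22530 and 19112 (-0.24 ± 0.20) and 11383 and 10216 (-0.16 ± 0.20). The 6 inducible genes thus ran from -3.42 to -0.24 with a median of -1.23, and 3 of the 6 were more than 2-fold lower.

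The constitutive cytosolic members lay within 2-fold. Hspa8 encodes HSC70, the HSP70 that cells make without stress, and was measured by 4 probes. From the brightest to the dimmest, its probes had 127833 and 110976 (-0.20), 63766 and 53720 (-0.25), 42982 and 34229 (-0.33), and 12756 and 8134 (-0.65). All 4 were lower in EP4 cKO colon, by different amounts. Hsp90ab1 encodes the constitutive HSP90. It had 192679 and 130025 (-0.57 ± 0.20), a drop of 1.48-fold that was larger than that of the inducible Hsp90aa1. Within the HSP90 pair the inducible gene thus did not have the lower ratio, unlike in the HSP70 group.

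Hspd1 encodes HSP60 and Hspe1 its lid HSP10, and the genes lie head to head on chromosome 1. The probes of Hspd1 had 40691 and 38848 (-0.07 ± 0.20) and 6352 and 6818 (0.10 ± 0.20). Those of Hspe1 had 31639 and 29695 (-0.09 ± 0.20), 19133 and 20376 (0.09 ± 0.20), and 7217 and 6424 (-0.17 ± 0.20). The 5 probes fell on both sides of 0, each within its scanner error, and the sign of both genes turned with the scaling (0.09 for Hspd1 and 0.07 for Hspe1 with the 75th percentile). Their ratios lay close to the middle of all genes, since 57.5% of the genes measured on both arrays had a ratio as low as that of Hspd1 or lower.

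Exact matches to the letters of heat shock elements did not follow the order of the ratios in the genes searched. Of the 10 genes, 7 were in the promoter table used here, with windows from 250 bases before to 50 after each annotated start; Hspa8, Hsp90aa1 and Hsp90ab1 were not. A pair GAANNTTC or TTCNNGAA was present in the windows of 6 of the 7 genes and in 15.1% of all 32851 windows. Dnajb1 was the gene whose windows held none. Units with other letters and sites outside the windows were not searched, so these counts can miss heat shock elements. A run of 3 units, GAANNTTCNNGAA or TTCNNGAANNTTC, which contains pairs that overlap, was present in 0.603% of all windows and in those of Hspd1, Hspe1 and Hsph1. Overlapping pairs stood between Hspe1 and Hspd1, with ratios near 0, whereas the windows of Hspa1a and Hspa1b held 1 exact pair each. The start of Hspe1 and 1 of the 2 annotated starts of Hspd1 lie 216 bases apart and share this stretch, read on opposite strands. The window of the other Hspd1 start, which lies beyond that of Hspe1, held 0 pairs. The stretches of 75 bases around the elements of Hspb1, Hsph1 and Hspe1 are shown for comparison, with the units in capitals. That of Hsph1 ends at the upstream one of its annotated starts and shows 1 of its 3 pairs. Its run of 3 units lies after that start, from base 36 to base 48, and is not shown. Counted from its other annotated start, the run lies from base 15 to base 27.
Hspb1, chr5:135887779-135887853, plus strand: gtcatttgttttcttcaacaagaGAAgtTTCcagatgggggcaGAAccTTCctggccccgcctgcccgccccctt
Hsph1, chr5:149636337-149636411, minus strand: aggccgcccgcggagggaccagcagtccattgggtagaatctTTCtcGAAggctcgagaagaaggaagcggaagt
Hspe1, chr1:55088028-55088102, plus strand: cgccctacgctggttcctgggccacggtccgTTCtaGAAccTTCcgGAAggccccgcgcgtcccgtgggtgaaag

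**Figure D2:**
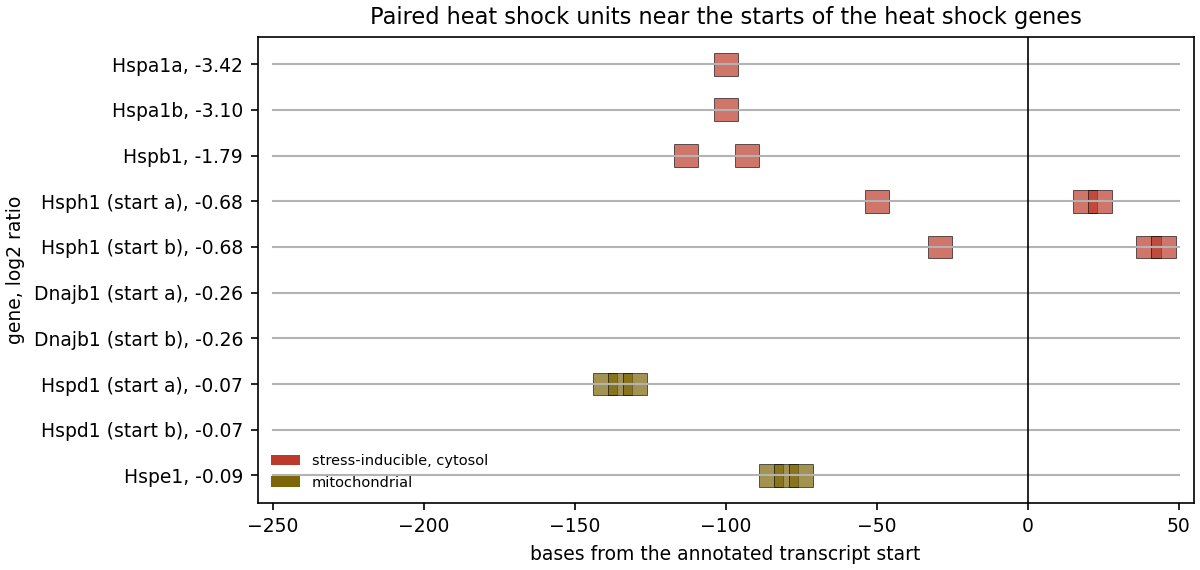
Position of each pair of heat shock units (boxes, 8 bases) in the window from 250 bases before to 50 after each annotated start, with 1 line per start and the log2 ratio of the gene beside its name. Hspa1a and Hspa1b, with log2 ratios of -3.42 and -3.10, have 1 box each, and Hspe1, at -0.09, has 3 overlapping boxes.

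Over all genes, those with an exact match went both ways. Of 63 genes with a run of 3 units and a value, 6 were more than 2-fold lower and 7 more than 2-fold higher, and their median log2 ratio was -0.15. Among the 11695 genes of the promoter table with a value, 7.66% were lower and 4.69% higher by that much, with a median of -0.10. Of the 1654 genes with a pair, 127 were lower and 99 higher. The match is one of letters only and shows no binding.

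In its median, the rest of the chaperone network stayed near the other genes. Of 140 further genes, mostly of the cytosolic and mitochondrial network, with heat shock factors and HSF1 targets, some of which, such as Serpinh1 and Sil1, act in the endoplasmic reticulum, 124 had a value, 5 were more than 2-fold lower and 3 more than 2-fold higher, and the median log2 ratio was -0.12. Over all genes with a value, 7.87% were more than 2-fold lower and 4.86% more than 2-fold higher, with a median of -0.10. Among the other HSP70 and HSP110 genes, 7 of 9 had a value with a median of 0.10. Hspa12a, a distant HSP70 relative, went from 1375 to 8674 (log2 ratio 2.66 ± 0.21), the largest change of any chaperone gene looked at in the direction opposite to Hspa1a. Hspa2, known from male germ cells, was dim at 240 and 139 (-0.79 ± 0.29). Hspa4l, an HSP110 gene, had 3407 and 4209 (0.30), and Hspa13 had 1815 and 1510 (-0.27).

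J-domain genes, the partners of HSP70, went both ways. In the DNAJA and DNAJB list, 10 of 14 genes had a value with a median of -0.19. Dnaja4 fell from 1633 to 686 (log2 ratio -1.25) and was -0.84 after normexp with quantile normalization, whereas the dim Dnajb3 rose from 186 to 536 (1.53). Dnajb2 had 5276 and 2953 (-0.84), and Dnaja2 had 8781 and 12177 (0.47). In the DNAJC list, 26 of 28 genes had a value with a median of -0.07. Dnajc27 rose above background in Villin-Cre colon only, at 903, and was at least 15.6-fold lower on the other, as a bound against the lowest signal well above background there (57.8). This bound moved with the normalization, to a log2 ratio of -1.78 after normexp, -2.93 with the E1A scale and -5.38 after loess. Its other probes were not well above background on either array. Dnajc28 fell from 523 to 220 (-1.25) and was within 2-fold after loess (-0.99) and normexp (-0.61). The ratios of Dnajc18, Dnajc5b and Dnajc11 were -0.85, 0.84 and -0.71.

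Small heat shock genes other than Hspb1 were mostly dark. Of 8, the 5 genes Cryaa, Hspb2, Hspb3, Hspb7 and Hspb8 stayed in the background. Hspb6, abundant in smooth muscle, had 752 and 545 (log2 ratio -0.47), Cryab, the alpha B-crystallin of muscle and lens, had 335 and 277 (-0.27), and Hspb9 had 268 and 258 (-0.06). No other small heat shock gene with a value was thus past 2-fold.

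Cochaperones of HSP90 and HSP70 held 35 measured genes of 36, with a median log2 ratio of -0.16. Fkbp5, a cochaperone that glucocorticoids induce, was the single gene past 2-fold and went from 9677 to 20525 (1.08), while its dimmer probe gave 958 and 1357 (0.50). Nudcd2 had 758 and 1293 (0.77), Tomm34 9233 and 5683 (-0.70), and Ppid, a cyclophilin of the HSP90 complex, 10639 and 7488 (-0.51). Bag3, which links HSP70 to small heat shock proteins and is a target of HSF1, had a ratio of -0.13, and Stip1, the adaptor between HSP70 and HSP90, had -0.16.

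Hsf1, the factor that drives inducible HSP70, went from 2773 to 1841 (log2 ratio -0.59 ± 0.21). Of 6 genes of heat shock factors and their partners, 5 had a value, with a median of -0.09 that was the ratio of Hsbp1. Hsf2 was dim, at 334 and 148 (-1.17 ± 0.27), and within 2-fold after loess (-0.89) and normexp with quantile normalization (-0.49). Besides the 10 genes, a list of 23 further genes known as HSF1 targets had 21 measured genes, with 2 lower, 0 higher and a median of -0.11. The genes past 2-fold were Dnaja4 and Serpinh1, the collagen chaperone HSP47 of the endoplasmic reticulum, at 528 and 197 (-1.43, and -0.77 after normexp). Cacybp had the highest ratio of this list (0.33).

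Folding machines that act beside HSP70 and in mitochondria did not hold a gene past 2-fold. The cytosolic chaperonin CCT and its helper prefoldin had a value for 15 of 15 genes, with a median log2 ratio of -0.15. Within it, Pfdn4 had 0.63, Cct7 -0.46, Cct4 -0.39 and Cct5 -0.29. All 23 mitochondrial chaperones and proteases had a value, with a median of -0.14. Hspa9, the mitochondrial HSP70, had -0.13, near Hspd1 and Hspe1, and Lonp1, the protease that degrades oxidized matrix proteins, had -0.25. The ratios farthest from 0 in this list were those of Timm44 (-0.54), Dnajc19 (0.53), Hscb (-0.52) and Clpp (-0.49).

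**Figure D3:**
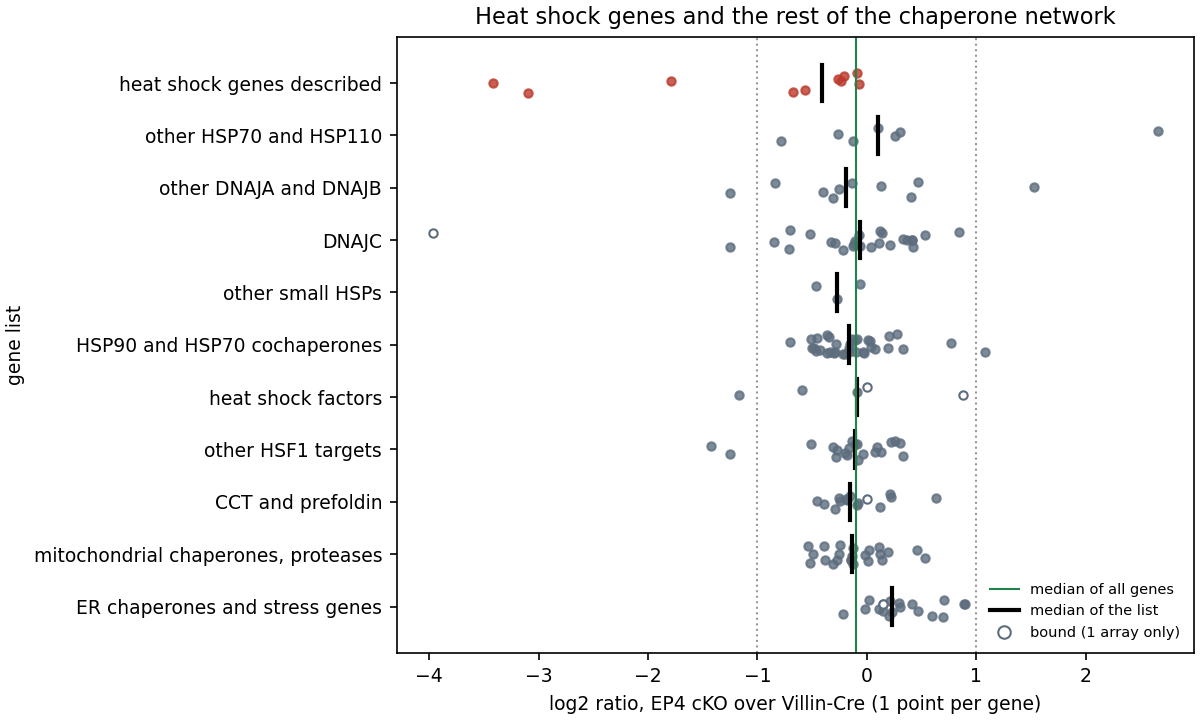
Log2 ratio (EP4 cKO over Villin-Cre) of each gene of the 10 heat shock genes and of 10 further lists, with a black bar at the median of each list, a green line at the median of all genes (-0.10), open points for bounds and dotted lines at 2-fold. The red points of Hspa1a, Hspa1b and Hspb1 lie apart on the left, and 17 of the 19 points of the ER chaperones and stress genes lie right of 0.

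A list of 19 chaperones and stress genes of the endoplasmic reticulum (ER), where secreted proteins fold, lay mostly on the other side of 0. It held the transcription factors Xbp1 (0.42) and Ddit3 (0.11) and the degradation component Herpud1 beside chaperones, and it was not complete. Counted in other lists and below 0 were Serpinh1 (-1.43), Dnajc18 (-0.85), Dnajb12 (-0.40), Hspa13 (-0.27), Dnajb14 (-0.25), Sil1 (-0.10) and Dnajc1 (-0.07), which also belong to the ER. Other ER genes of those lists, such as Dnajc14 (0.33) and Dnajc16 (0.11), lay above 0. All 19 had a value, 17 were above 0, none of the 19 was past 2-fold, and the median log2 ratio was 0.23. Herpud1 had 23577 and 43963 (0.90), Pdia3 9590 and 17779 (0.89), Sdf2l1 2303 and 3756 (0.71) and Manf 5886 and 9545 (0.70). Hspa5, the HSP70 of the ER, had 39386 and 54404 (0.47 ± 0.20), whereas its cytosolic relatives Hspa1a and Hspa1b fell.

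Markers of other cell types also differed between the arrays. Of 8 fibroblast markers, 7 had a value and all 7 were more than 2-fold lower, their summed signal going from 14302 to 420, and Pdgfra stayed in the background. Dcn (-5.77), Col1a2 (-5.03) and Fbln1 (-1.09) were measured on both arrays, and Col3a1, Col1a1, Mfap5 and Lum gave bounds, of -4.81, -4.32, -4.31 and -3.15. Of 10 smooth muscle markers, 7 had a value and the sum went from 33520 to 47504. Acta2 (0.62) and Actg2 (0.72) were higher and Cnn1 (-2.73) and Myl9 (-2.15) lower, while Myh11, Synpo2 and Lmod1 were not well above background. Myh11, which defines smooth muscle, was thus not detected in RNA labelled as whole colon. All 12 epithelial markers had a value, with a median of 0.08, and 1 of these, Krt20 of the surface epithelium, was more than 2-fold higher (1.80), while Epcam had 0.56, Vil1 0.52 and Car1 -0.42. Of 9 leukocyte markers 6 had a value, with a median of -0.05, and their sum went from 58165 to 75528, but from 8818 to 6931 without Itgam (0.48), the brightest. Ptprc had 0.97, Csf1r -0.79 and Cd3e -0.10. Of 8 nerve and glia markers 2 had a value, and their sum went from 3216 to 1456. These were Uchl1 (-1.43) and Elavl4 (-0.82). The 7 goblet cell markers went both ways, with a median of 0.09. Clca1 was more than 2-fold higher (1.31), and Fcgbp (0.64), Agr2 (0.35) and Tff3 (-0.75) lay within 2-fold. Of 6 pancreas markers Cela1 had a value (-1.02). Immediate early genes, which respond within minutes to handling of tissue, had a median of -0.25 over 17 of 18 genes, with Klf2 (-1.66) and Nr4a1 (-1.29) more than 2-fold lower, Jun at -0.94 and Atf3 at 0.71. The part of these differences in the falls of Hspa1a, Hspa1b, Hspb1 and Serpinh1 was not tested.

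The falls of Hspa1a, Hspa1b and Hspb1 stayed past 2-fold under the 4 other normalizations, at -3.37 to -3.26, -3.00 to -2.86 and -1.66 to -1.54. The choices of filter and of probe could not move these genes, which had 1 probe each, bright on both arrays. The median over genes measured on both arrays was raised by 0.16 with the 75th percentile, 0.13 with loess, 0.11 with normexp and quantile normalization and 0.13 with a trimmed mean over all spots, and the split of all calls moved from 713 higher and 1155 lower to 937 and 907, 906 and 869, 602 and 392, and 901 and 944. Control spots for E1A, a viral sequence meant for a spike-in RNA, gave another scale, on which the log2 ratio of every gene measured on both arrays was 1.04 higher. Whether a spike-in RNA was added at all, and in equal amounts, is not given in the sources used here, so these values may not measure a common scale. On it Hspa1a was at -2.38 and Hspa1b at -2.06, Hspb1 was within 2-fold (-0.76), and the other 7 genes lay above 0, with Hspd1 at 0.97 and Hspe1 at 0.94, so that the lower levels given above for Hsph1, Dnajb1, Hsp90aa1, Hsp90ab1 and Hspa8 turn in sign on it. The gap between the inducible HSP70 pair and the other heat shock genes is a difference within the arrays and does not depend on a scale that is the same for all probes.

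**Figure D4:**
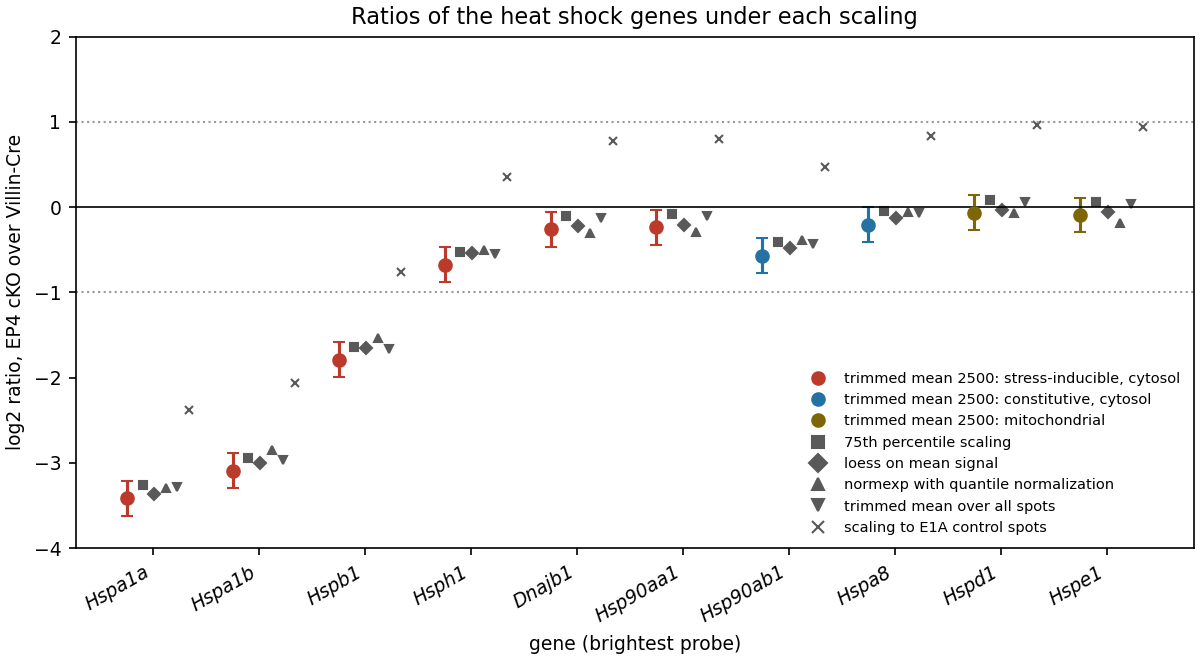
Log2 ratio (EP4 cKO over Villin-Cre) of the brightest probe of each heat shock gene, coloured by class with bars of the scanner error (1 SD), beside grey symbols for 5 other scalings, and dotted lines at 2-fold. Hspa1a and Hspa1b stay below -2 under every scaling drawn, and Hspb1 lies within 2-fold only with the E1A control spots (-0.76).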

How the data were processed

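RNA of whole colon from 2 genotypes was measured on 1 array each, and groups were taken from the genotype labels. The authors deposited scanner intensities (Feature Extraction 12.0.3.1 by the file header, 11.5.1.1 by the submitters' processing notes), with background subtracted and spatial trends removed and no scaling between arrays. Other deposited columns used were the software's error of each signal, its raw spot and background intensities and its flags, coded 0 or 1.

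From these, outlier spots and control spots were left out, the spots of a probe were averaged, and arrays were scaled to a trimmed mean of 2500 (factors 3.45 for Villin-Cre and 2.68 for EP4 cKO), as in the study's methods. A probe well above background on 1 array only gave a bound, with the dim side set to its own signal or, if higher, to the lowest signal well above background (125 for Villin-Cre, 57.8 for EP4 cKO), and a bound not past 1 was counted as a log2 ratio of 0. Probes were named by RefSeq accession through a table of GRCm38.p6 genes; 32989 of 56593 probes (58.3%) matched. The arrays' grid names another assembly, so coordinates are those of the RefSeq promoter sequences only.

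The heat shock genes and lists were chosen with earlier results of these data known. All heat shock genes were named. Of each other list, genes past 2-fold were named, and up to 4 with the largest ratios among those well above background on both arrays. Others (Bag3, Stip1, Sil1, Xbp1, Ddit3, Dnajb12, Dnajb14, Dnajc1, Dnajc14, Dnajc16, Hspa9, Lonp1, Hspa5, the chromosomal neighbours and the dark genes) were singled out afterwards. Single arrays allowed no test, and the number of arrays limits the precision. Alternatives were scaling to the 75th percentile, loess (span 0.3), normexp on the median spot intensity (offset 50) with quantile normalization, a trimmed mean over all spots, no filter on dim probes, a requirement of both arrays above background, averaging over the probes of each gene, and thresholds of 1.5-fold and 3-fold. E1A scaling and the motif counts were added after seeing the data. Steps were tested on simulated data. Python 3.11.15 (numpy 2.4.6, pandas 2.3.3, statsmodels 0.14.6, matplotlib 3.10.9) and R 4.3.3 (limma 3.58.1) were used.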

Additional observations from a re-analysis of the deposited data

How the results depend on the processing

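The count of heat shock genes more than 2-fold lower was 3 under the 4 other normalizations and with a 3-fold threshold, 4 with a 1.5-fold threshold, which added Hsph1, and 2 with the E1A control spots, and the count of those higher was 0 in all of these. The filters on dim probes and the mean of all probes also gave 3, and could not have removed any of the 3 genes, which had 1 probe each, bright on both arrays. The median log2 ratio of the inducible genes was -1.02 after normexp with quantile normalization, and this was the one of the class medians to move by more than the scanner error under settings other than E1A scaling. With the E1A control spots, chosen after seeing the data, the medians were 0.62 for the 10 genes, -0.20 for the inducible, 0.65 for the constitutive cytosolic and 0.96 for the mitochondrial genes. Among the 140 further network genes, the 5 lower became 3 after loess, 1 after normexp with quantile normalization, 14 without a filter on dim probes, 1 with E1A scaling, 12 at 1.5-fold and 1 at 3-fold. The 3 higher became 5 after loess, 45 with E1A scaling, 7 at 1.5-fold and 1 at 3-fold. Without the filter, the calls over all genes were 1169 up and 7213 down, and with E1A scaling 5726 up and 332 down. Apart from the changes that follow from the number of genes or from the scale itself, the cause was not tested. No paired analysis was possible because each genotype had 1 array, and for the same reason no array could be left out.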
